A study of Mus musculus with 6 samples.

Results

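The START domain lipid transfer proteins are carriers that hold a single lipid in a closed hydrophobic pocket and move it between membranes. Their transcripts were measured in the livers of mice that lack KRAP and of wild-type littermates. KRAP stands for Ki-ras-induced actin-interacting protein, and its gene is now named Itprid2. The KRAP-/- mice carry a pGKneo cassette in place of exons 11 to 16 of the gene in every cell, and the line was backcrossed to C57BL6/J. The wild-type mice carry no other stated allele. All mice were 32 weeks old and were fed normal chow, with 3 mice of each genotype, matched as 3 littermate pairs, and 1 array per mouse. The study compared the livers to look for genes that accompany the metabolic state of KRAP-/- mice. Arrays from brown adipose tissue were not analysed here.

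The 9 genes were Star, Stard3, Stard4, Stard5, Stard7, Stard8, Stard10, Stard13 and Pctp, out of 18193 genes for which the array has a probeset with 1 gene symbol. They were chosen as a family by symbol, with the difference between KRAP-/- and wild-type livers in these same arrays already known. That difference is therefore given below as a description for these 9 genes, with its error and no p-value. The genes have 18 probesets, and 4 of the genes have a single one. All 9 genes are described at the probeset with the highest mean over the 6 arrays, called the brightest, and then at the others.

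In this family, Star carries cholesterol to the inner mitochondrial membrane, the first step of steroid hormone synthesis in adrenal gland and gonad. Stard3 sits on late endosomes and binds sterol there, while Stard4 and Stard5 are small soluble proteins, of which Stard4 carries cholesterol through the cytosol. Pctp and Stard7 carry phosphatidylcholine, Stard7 to mitochondria, and Stard10 binds phosphatidylcholine and phosphatidylethanolamine and is abundant in liver. Stard8 and Stard13 are GTPase activating proteins with a START domain at one end. In the liver, cholesterol synthesis and uptake are under the transcription factor SREBP-2, and Stard4 is known as one of its targets.

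Signals are given in units of the median signal of the array, so that 1 is the signal of the middle probeset. The probeset named for KRAP read 21.6, 21.3 and 20.0 in KRAP-/- livers 1 to 3 and 23.95, 24.5 and 22.3 in wild-type livers 1 to 3. Its place relative to the replaced exons is not given in the sources used here, so it does not check the labels. Hepatocyte markers summed to 2220 to 2550 in KRAP-/- livers and 2370 to 2450 in wild-type livers, with 4 of 5 markers measured. As a guide to background, 9 probesets of Y-linked genes had a median of 0.0525 and a highest value of 0.526 in these livers, all of which had high Xist signals of 66.3 to 85.6.

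Star and Stard4 were the members with a probeset past the adjusted p threshold as lower in KRAP-/- livers. No probeset of the other 7 genes was past it. At the brightest probeset, Star was 0.441 ± 0.200 (SD, n = 3) in KRAP-/- livers and 1.95 ± 0.323 (SD, n = 3) in wild-type livers. With the 2 KRAP-/- livers under the highest Y-linked value of 0.526 raised to that value, the wild-type mean was 3.4-fold higher. That value is the highest of 9 probesets and not a measured limit of background, so 3.4 is no lower bound. At the next Star probeset the wild-type mean was 1.37-fold higher. Stard4 was 27.0 ± 3.98 (SD, n = 3) against 38.6 ± 2.49 (SD, n = 3). At this probeset 1 of the 9 genes, Star, was past the threshold of the fit over all probesets (limma, Benjamini-Hochberg adjusted p of 0.05) as lower in KRAP-/-, and 1.31% of all 13217 genes tested in this way were. None of the 9 was past it as higher, where the share of all genes was 0.333%. The log2 difference was below 0 in 6 of the 9 genes and in 62.1% of all genes, and its median was -0.20 for the 9 genes and -0.08 for all genes.

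**Figure D1:**
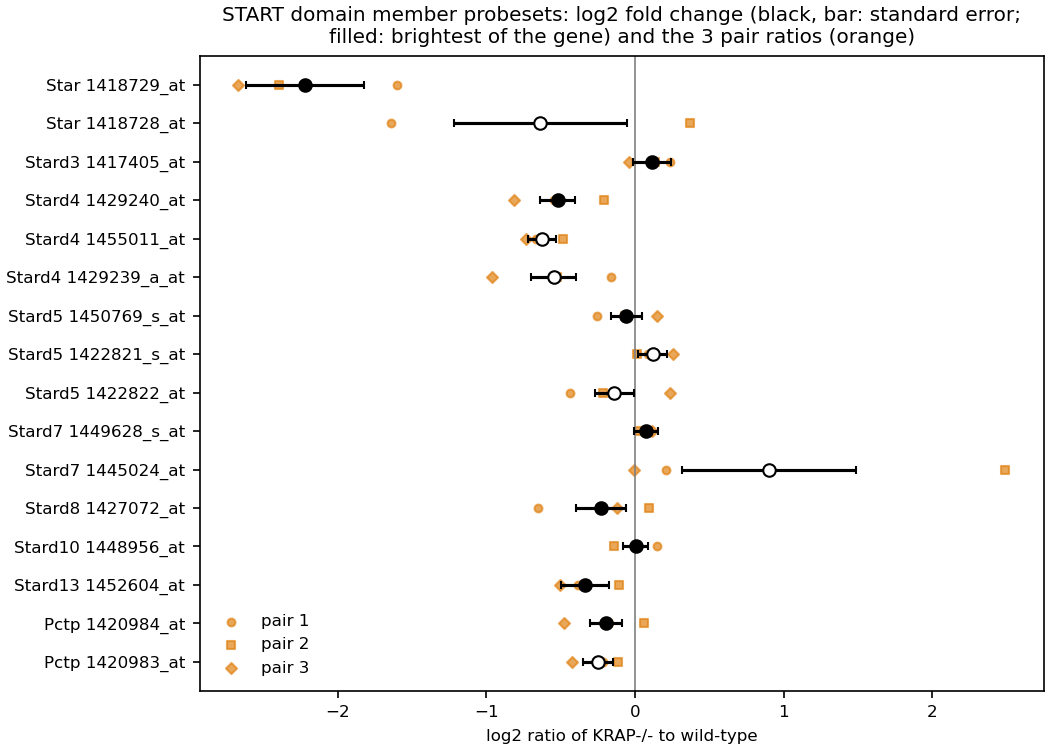
Log2 ratio of KRAP-/- to wild-type for the 16 tested probesets of the 9 genes. Black circles are fitted differences (filled at the brightest probeset of a gene) with bars of 1 standard error, and orange marks are the 3 littermate pairs; the brightest Star probeset lies at -2.22, the 3 Stard4 probesets between -0.63 and -0.52, and the brightest probesets of the other genes between -0.33 and 0.11.

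Across all probesets, 16 of the 18 member probesets were bright enough to be tested, which needed a mean of 0.5, and 1 of Star and 1 of Stard5 were not. Of the 16, 2 were past the threshold as lower, 1 of Star and 1 of Stard4, with 0.978% of all 28531 probesets past it in that direction, and 0 were past it as higher, with 0.431% of all probesets. In 3 of the 16 the KRAP-/- livers were all below the wild-type livers, which was so for 12.3% of all probesets, and in 0 of the 16 were they all above, against 7.8%. The log2 difference was below 0 in 11 of the 16 and in 55.2% of all probesets. The median log2 difference was -0.21 over the 16 probesets and -0.04 over all probesets tested. By the rule of a 1.5-fold difference in each of the 3 littermate pairs, 1 of the 18 probesets was lower, again the brightest of Star, against 2.88% of all 45037 probesets, and 0 were higher, against 2.3%. With no filter on dim probesets, or with no intensity trend in the fit, no probeset of the array passed, and the calls given here rest on both.

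**Figure D2:**
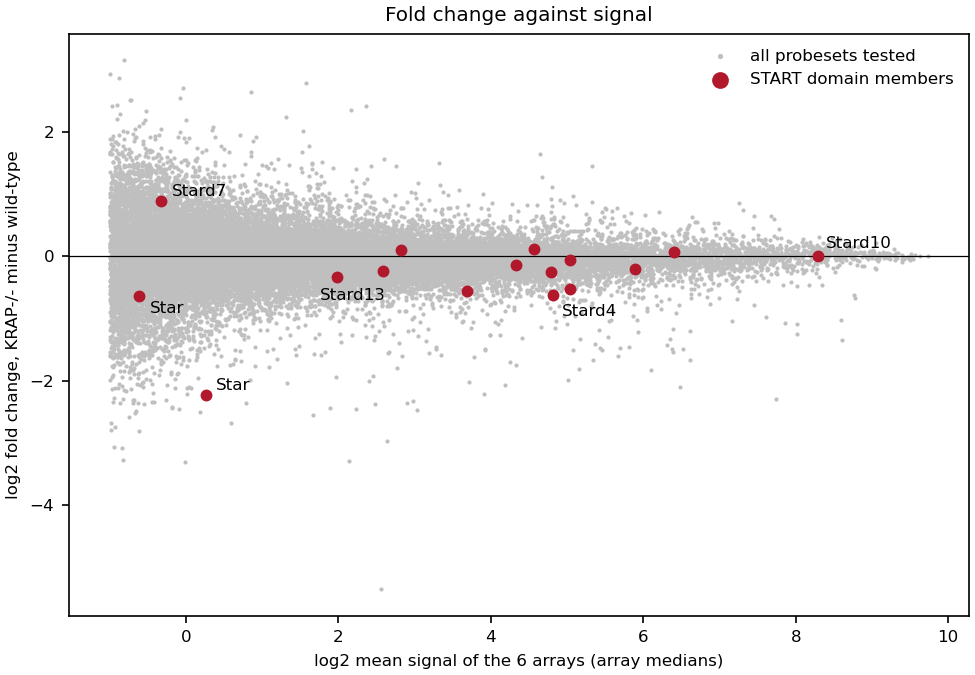
Log2 difference of KRAP-/- minus wild-type against the log2 of the mean signal over the 6 arrays (in array medians), for all 28531 tested probesets in grey and the 16 member probesets in red. The brightest Star probeset has a difference of -2.22 at the dim end, where the grey points spread widely, and Stard10 lies at 0.00 at the bright end.

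Star was measured by 3 probesets, which did not read alike. The brightest gave 0.671, 0.304 and 0.349 in KRAP-/- livers 1 to 3, and 2.03, 1.60 and 2.23 in wild-type livers 1 to 3. The groups did not overlap, and each KRAP-/- liver was below its littermate, with ratios of 0.330, 0.190 and 0.157 in pairs 1 to 3. The log2 difference was -2.22 with a standard error of 0.40, and without pair 3 it was -2.00 and no longer past the threshold. KRAP-/- livers 2 and 3 lay below the highest Y-linked value of 0.526, so their levels were within the range of background on these arrays and the fitted difference has no exact size, while all 3 wild-type livers lay above it. Since the tissue is bulk liver, fewer cells that express a gene and less RNA in each cell cannot be told apart.

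A different pattern was seen at the next Star probeset, which gave 0.240, 0.877 and 0.542 in KRAP-/- livers and 0.748, 0.679 and 0.845 in wild-type livers. The groups overlapped, with pair 2 higher in KRAP-/- at a ratio of 1.29 and pairs 1 and 3 lower at 0.320 and 0.641. Its log2 difference was -0.64 with a standard error of 0.58. The last Star probeset had signals of 0.0290 to 0.0645 in KRAP-/- livers and 0.0370 to 0.0578 in wild-type livers, at the level of Y-linked probesets, and was not tested. The lower Star signal in KRAP-/- livers thus rests on 1 of 3 probesets.

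Markers of steroidogenic cells, which express Star strongly, were examined beside it. The sum of 7 such markers was 18.6 to 26.0 in KRAP-/- livers and 38.5 to 65.2 in wild-type livers, with no overlap. Most of that sum was Cyp17a1, a steroid hydroxylase that mouse liver also expresses, which read 20.4, 16.9 and 23.4 in KRAP-/- livers and 56.7, 63.25 and 36.1 in wild-type livers. Cyp17a1 was lower in KRAP-/- with a log2 difference of -1.33 and a standard error of 0.20 (limma, adjusted p = 0.014), and was 1 of 3 tested markers past the threshold. Of the other markers, Cyp11a1 and Cyp21a1 were bright enough to be tested and had group means above the Y-linked range, though not every liver did, of 0.630 and 0.626 for Cyp11a1 and 0.876 and 0.799 for Cyp21a1 in KRAP-/- and wild-type livers, with overlapping groups. The remaining markers had means within the Y-linked range, with mean signals in KRAP-/- and wild-type of 0.329 and 0.256 for Cyp11b1, 0.346 and 0.266 for Hsd3b1, 0.168 and 0.176 for Nr5a1, and 0.140 and 0.229 for Mc2r.

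**Figure D3:**
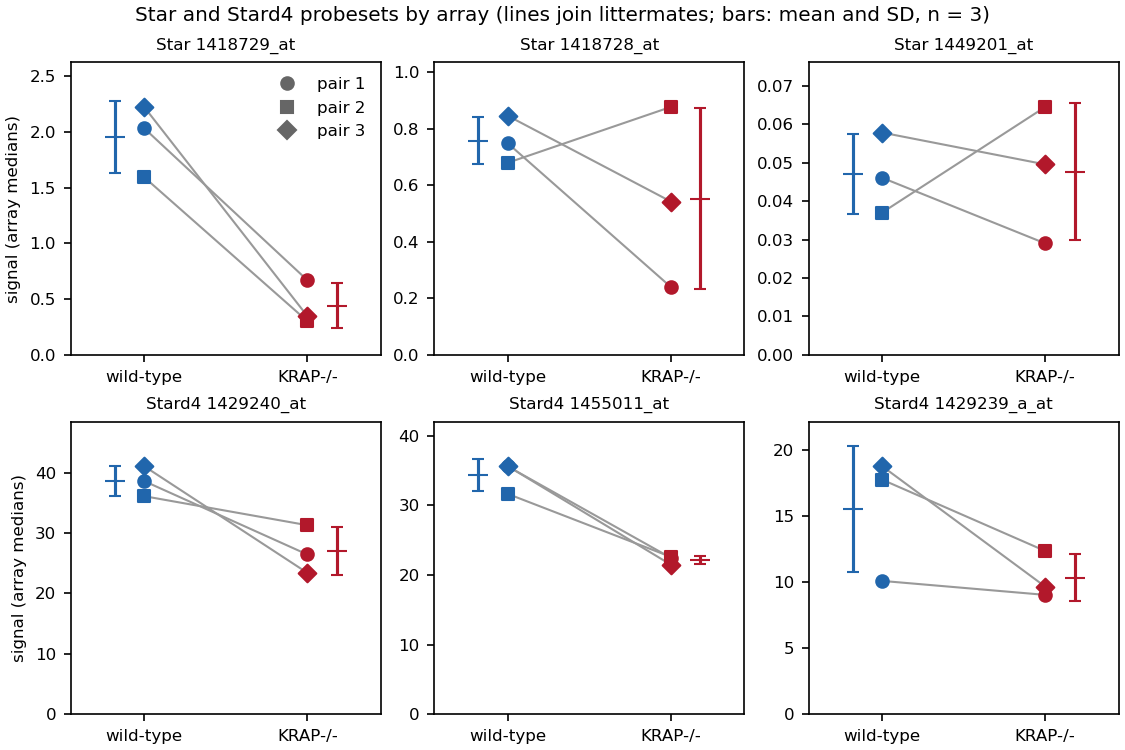
Signal of the 3 Star and 3 Stard4 probesets in each of the 6 livers, in units of the array median, with lines that join littermates and bars of mean and SD (n = 3) beside each group. The KRAP-/- points lie below all wild-type points at the brightest Star probeset and at 2 of the 3 Stard4 probesets.

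Stard4 was lower in KRAP-/- than in its littermate in all 3 pairs at each of its 3 probesets. The probesets read the same 3 pairs of livers, so their 9 ratios are not independent. The brightest gave 26.4, 31.3 and 23.4 in KRAP-/- livers and 38.6, 36.1 and 41.1 in wild-type livers, with ratios of 0.685, 0.867 and 0.570. The groups did not overlap, but with a log2 difference of -0.52 and a standard error of 0.12 it was not past the threshold, which it reached only without pair 2, at -0.68. The next probeset was the steadiest, at 22.5, 22.6 and 21.5 in KRAP-/- livers against 35.6, 31.7 and 35.7 in wild-type livers. It was past the threshold at -0.63, with a standard error of 0.10. The dimmest gave 9.02, 12.3 and 9.64 against 10.1, 17.7 and 18.8, where wild-type liver 1 lay within the range of the KRAP-/- livers, and its difference was -0.55 with a standard error of 0.15. All 3 probesets thus gave differences of similar size, and the spread between wild-type livers was widest at the dimmest.

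Neither Stard3 nor Stard5 stood apart by genotype. Stard3 was 7.69, 7.21 and 7.07 in KRAP-/- livers and 6.52, 6.56 and 7.26 in wild-type livers, with a log2 difference of 0.11 and a standard error of 0.13. Stard5 was 33.6, 32.3 and 29.8 against 40.2, 33.8 and 27.0 at its brightest probeset, so that the wild-type livers spanned the KRAP-/- livers. Over the 3 tested Stard5 probesets, which read the same 3 pairs, 4 of 9 littermate ratios were lower in KRAP-/- and 5 were higher. The log2 differences were -0.06, 0.12 and -0.14. Where Stard4 moved one way at each probeset, Stard5 did not.

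The phosphatidylcholine carriers each had overlapping groups. Stard10 read 341.6, 299.3 and 297.7 in KRAP-/- livers and 307.7, 330.0 and 297.6 in wild-type livers. Its log2 difference was 0.00 with a standard error of 0.08, and its coefficient of variation was 7.95% in KRAP-/- and 5.32% in wild-type livers. Stard7 read 94.2, 82.8 and 84.2 against 89.5, 81.1 and 77.7, and each KRAP-/- liver was slightly above its littermate, with ratios of 1.02 to 1.08. That probeset and the 2 brightest of Stard5, which differed in sign, are of a type designed to match several transcripts, so a related transcript could add to their signals. The other Stard7 probeset was dim, with signals of 0.200 to 1.13, and its log2 difference of 0.90 had a standard error of 0.59.

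Pctp read 50.9, 58.1 and 56.4 in KRAP-/- livers and 57.5, 55.8 and 78.5 in wild-type livers at its brightest probeset, a log2 difference of -0.20 with a standard error of 0.11. Wild-type liver 3 was the highest at both Pctp probesets. At the other probeset each KRAP-/- liver was below its littermate, with ratios of 0.863, 0.925 and 0.747, but the groups overlapped and the difference of -0.25 was not past the threshold.

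Of the GTPase activating members, Stard13 gave 3.02, 3.99 and 3.45 in KRAP-/- livers and 3.95, 4.30 and 4.91 in wild-type livers. Each KRAP-/- liver was below its littermate, and only KRAP-/- liver 2 reached the range of the wild-type livers. The log2 difference was -0.33 with a standard error of 0.16. Stard8 gave 5.17, 5.50 and 5.84 against 8.13, 5.15 and 6.37, a difference of -0.23 with a standard error of 0.17, and the wild-type livers varied more, at a coefficient of variation of 22.9% against 6.16%. Both proteins are known from endothelial and other non-parenchymal cells, and the 5 endothelial markers summed to 41.7 to 47.5 in KRAP-/- livers and 44.3 to 46.7 in wild-type livers.

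The remaining genes with a START domain were not members and could be tested. None of the 6 passed (limma, adjusted p of 0.05), and 1 of them, Acot11, had an unadjusted p under 0.05. Acot11, an acyl-CoA thioesterase, was 1.86 ± 0.239 (SD, n = 3) in KRAP-/- and 2.86 ± 1.01 (SD, n = 3) in wild-type livers, a log2 difference of -0.57 (limma, adjusted p = 0.26). The other Acot11 probeset was dim and differed between pairs, with ratios of 0.0524, 0.695 and 4.46 and a difference of -0.87 (limma, adjusted p = 0.77). Cert1, which carries ceramide from the endoplasmic reticulum to the Golgi, was 27.8 ± 3.54 (SD, n = 3) against 27.7 ± 1.48 (SD, n = 3), with a difference of 0.00 (limma, adjusted p = 0.99). The dimmer Cert1 probesets gave 0.05, 0.07 and -0.17 (limma, adjusted p = 0.91, 0.93 and 0.86). Acot12, a hydrolase of acetyl-CoA, had a difference of 0.14 at its brightest probeset (limma, adjusted p = 0.59). Its other tested probeset, with all 3 pairs higher, gave 0.23 (limma, adjusted p = 0.39). Dlc1 is the GTPase activating protein closest to Stard8 and Stard13. Its brightest probeset gave -0.16 with all 3 pairs lower (limma, adjusted p = 0.48). The other tested Dlc1 probesets differed in sign, at 0.14, -0.30 and 0.29 (limma, adjusted p = 0.76, 0.74 and 0.79). Stard6 and Stard9 were dim, and their 95% intervals of -0.70 to 0.92 and -0.17 to 1.21 on the log2 scale leave room for changes of either sign.

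Genes that act beside these carriers were taken as lists, each at the brightest probeset and with no test of the list. Over all 13217 genes tested in this way, 15.7% had an unadjusted p under 0.05, the share beside which the counts at that level stand. In mitochondrial sterol import and first oxidation, none of 7 tested genes passed (limma), with 2 at an unadjusted p under 0.05 and a median log2 difference of -0.08. Of these, Cyp27a1, the sterol 27-hydroxylase, had a difference of -0.22 (limma, adjusted p = 0.27) and the ferredoxin Fdx1, which donates electrons to it, of -0.20 (limma, adjusted p = 0.31). Cyp11a1, the enzyme that uses the cholesterol delivered by Star in steroid-producing cells, was dim with a difference of 0.04.

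In late endosome sterol export and membrane contacts, none of 6 genes passed (limma), with 4 at an unadjusted p under 0.05 and a median of -0.16. Npc1, which exports cholesterol from late endosomes, had a difference of 0.33 with all 3 pairs higher (limma, adjusted p = 0.18), and Vapb, an endoplasmic reticulum anchor for Stard3, had one of -0.42 (limma, adjusted p = 0.26). Vapb, Npc2 and Lipa were each lower in all 3 pairs, with Npc2 and Lipa both at -0.23 (limma, adjusted p = 0.24 and 0.26). The Vapb and Lipa probesets are of the type designed to match several transcripts. Among other cytosolic sterol carriers, none of 11 passed (limma) and 0 had an unadjusted p under 0.05, with a median of 0.04 and the widest differences at Osbpl8, -0.28, and Gramd1c, -0.17. In phosphatidylcholine synthesis and export, none of 9 passed (limma) and 3 had an unadjusted p under 0.05, with a median of -0.05. Chka, the choline kinase, had a difference of -0.49 (limma, adjusted p = 0.15) and Chpt1, which makes phosphatidylcholine from CDP-choline, one of 0.36 (limma, adjusted p = 0.12).

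Among these lists, only sterol sensing and SREBP-2 targets held genes past the threshold. That list, like the others, was written with earlier results of these arrays known. The study had already tied the genes lower in KRAP-/- liver on these arrays to cholesterol biosynthesis. The calls in this list are therefore a description and not a separate test. Of 9 listed genes 6 were measured at a probeset with 1 symbol, and 2 of the 6, Sqle and Idi1, were past the threshold as lower. In 5 of the 6 the unadjusted p was under 0.05 (limma), and the median log2 difference was -0.49. Idi1, an isomerase of the cholesterol pathway, was 37.8, 58.0 and 35.4 in KRAP-/- livers and 100.9, 128.4 and 144.4 in wild-type livers, and the difference was -1.53 (limma, adjusted p = 0.0023). Sqle, squalene epoxidase, had a difference of -1.98 (limma, adjusted p = 0.0040). Srebf2, which encodes SREBP-2, was lower in all 3 pairs at -0.60 without passing (limma, adjusted p = 0.059). Scap and Insig1 were also lower in all 3 pairs without passing (limma, adjusted p = 0.092 and 0.32), and Insig2 had a difference of 0.12 (limma, adjusted p = 0.53).

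**Figure D4:**
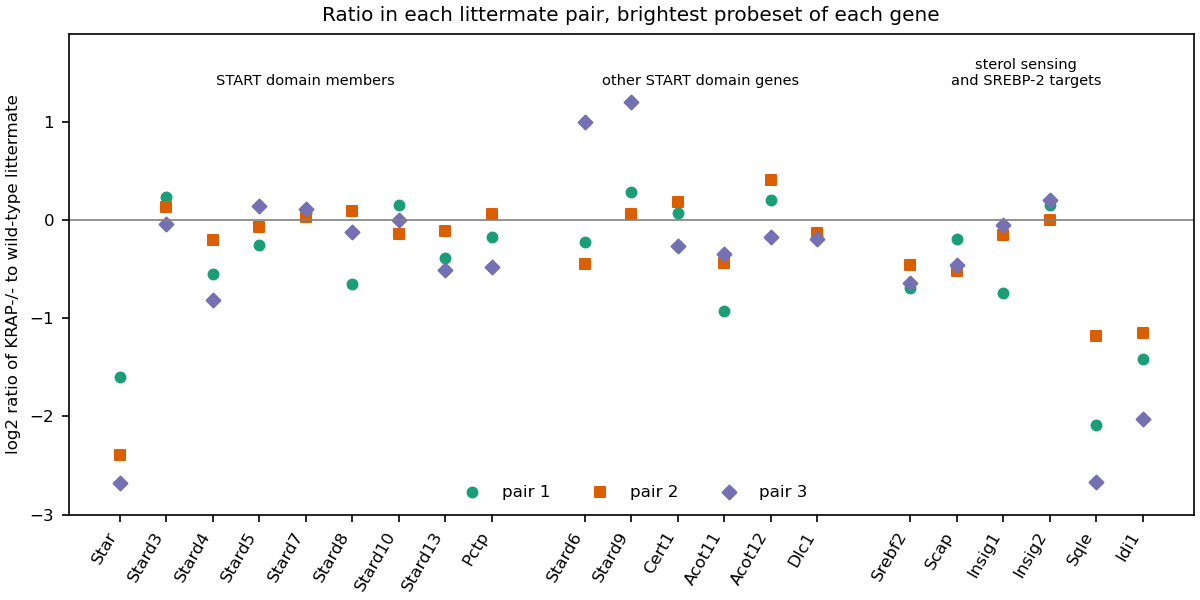
Log2 ratio of KRAP-/- to wild-type signal within each littermate pair at the brightest probeset of each of the 9 members, the 6 other START domain genes and the 6 measured genes of the sterol list, with 1 mark per pair. All 3 pairs lie below 0 for Star, Stard4, Stard13, Acot11, Dlc1, Srebf2, Scap, Insig1, Sqle and Idi1, and all ratios of Sqle and Idi1 lie below those of Stard4.

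Among 11044 genes with a mean signal of at least 1, those whose 3 littermate log2 ratios were nearest to those of Stard4 at its brightest probeset, by root mean square difference, were Taf1 at 0.0347, Gng10 at 0.0383, Fbxo4 at 0.0458, Sox9 at 0.0529 and Nrp at 0.0584. The ratios of Taf1, a subunit of the general transcription factor TFIID, were 0.702, 0.887 and 0.557. The likeness rests on 3 pairs compared over 11044 genes, with no baseline for how near the nearest genes would lie, and is a description only. No such genes are given for Star, whose ratios in pairs 2 and 3 rest on signals within background.

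Promoter windows of 300 bases, 250 before and 50 after the start site, were at hand for 7 of the 9 genes from RefSeq (GRCm38.p6), though not for Star or Stard4. The letters TCACNCCAC, a form of the sterol regulatory element, were sought on both strands after the falls of Sqle and Idi1 were known. They were found in 1 of the 7 windows, that of Stard3, and in 1.24% of all 32851 windows. The stretch before the Stard3 start is shown because it holds this match, in capitals, at chr11:98358118-98358367 on the plus strand, with 202 bases between the match and the start site.
Stard3: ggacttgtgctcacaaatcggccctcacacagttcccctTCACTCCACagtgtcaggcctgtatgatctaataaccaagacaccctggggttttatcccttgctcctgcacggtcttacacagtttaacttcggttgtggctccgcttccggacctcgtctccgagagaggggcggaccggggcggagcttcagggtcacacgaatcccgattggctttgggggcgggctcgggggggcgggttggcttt
A match of letters is not a bound site, and Stard3 itself had a log2 difference of 0.11.

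Markers of other liver cells were compared beside these values. Kupffer cell markers summed to 112 to 116 in KRAP-/- livers and 134 to 158 in wild-type livers with no overlap, and 1 of 5, Clec4f, was past the threshold at -0.54 (limma, adjusted p = 0.025). Of the 5, 3 had an unadjusted p under 0.05, all lower in KRAP-/-, with Cd5l at -0.30 and Adgre1 at -0.43 beside Clec4f. Stellate cell markers summed to 62.5 to 66.9 against 59.0 to 72.0, cholangiocyte markers to 3.82 to 5.43 against 5.16 to 6.35, and adipocyte markers to 8.66 to 12.1 against 8.82 to 26.4. For adipocytes 4 of 6 markers were measured. None of the tested markers of these 3 cell types, of hepatocytes or of endothelial cells passed (limma), with 1 adipocyte and 1 stellate cell marker at an unadjusted p under 0.05. The part of cell makeup in the Star and Stard4 values was not tested.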

How the data were processed

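Liver RNA of 6 mice was hybridized to Affymetrix GeneChip mouse genome arrays, 1 array per mouse. The authors deposited linear intensity values as GCOS gave them, and the scaling to the 50th percentile given in the study's methods is not in them. Each was divided by its array's median, which was 20.2 to 23.4 in KRAP-/- and 19.1 to 22.6 in wild-type arrays, and 64 control probesets were left out. Values under 0.1 were set to 0.1 before the log2 was taken. Probesets with a mean of at least 0.5, 28531 of 45037, went into a linear model in limma 3.58.1 under R 4.3.3 that held the genotype and a block for the littermates, moderated along an intensity trend, with Benjamini-Hochberg adjusted p-values over all of them and a threshold of 0.05. The number of arrays limits the precision. The 1.5-fold rule used ratios within pairs, without a floor. The pairs are littermates by the study's methods, and correlations between littermates of deviations from the genotype mean were 0.0429, 0.00954 and -0.0124.

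Of the probesets, 34945 had 1 symbol, 932 several and 9160 none in the platform annotation, and genes were named only from those with 1. The members, lists and alternatives were chosen with earlier results of these data known. The text names all members and other START domain genes, and in each list up to 4 genes past the threshold or otherwise the 2 with the largest change. Genes named beyond this rule are Srebf2, Scap, Insig1 and Insig2 in the sterol list. Cyp11a1 in the mitochondrial list and Npc2 and Lipa in the late endosome list are also beyond it. The motif was chosen after the values were seen. The fit was checked on simulated data. Figures were drawn in matplotlib 3.10.9, and tables were made in pandas 2.3.3 with numpy 2.4.6 under Python 3.11.15. Alternatives were the deposited values, quantile normalization, another floor, a pseudocount, other filters, no replicate block, no intensity trend and leaving out each pair.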

Additional observations from a re-analysis of the deposited data

How the results depend on the processing

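Among the 9 genes at the brightest probeset, 1 was past the threshold as lower, and 0 were with no filter on dim probesets or no intensity trend. When every probeset was counted, 2 of the 16 tested were past it. With 1 pair left out, 0 to 2 of the 9 genes were past it, while 267 to 522 of all probesets were called lower. Without pair 3 Star was lost, and without pair 2 both Star and Stard4 passed. Without the replicate block the count was 1. The Star difference ranged from -2.53 to -1.70 and passed in 8 of 11 alternatives, and the steadiest Stard4 probeset ranged from -0.70 to -0.57 and passed in 9 of 11. The other Stard4 probesets passed only without pair 2, for the brightest, and only without pair 1, for the dimmest. The small differences of Stard5, Stard10, Cert1 and Stard6 changed sign under some alternatives, and that of Stard7 was 0.12 on the deposited values and 0.14 after quantile normalization.

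Over all probesets, 279 were lower and 123 higher, which became 0 and 0 with no filter (limma, with 2937 lower and 1614 higher at an unadjusted p under 0.05) and 0 and 0 with no intensity trend (1794 and 1295). Leaving out a pair gave 267 to 522 lower and 110 to 338 higher, and the fit without the replicate block gave 255 and 93. The 1.5-fold rule gave 1299 lower and 1035 higher, 535 and 376 at 2-fold, 239 and 176 at a mean of at least 1, and 3178 to 3512 and 2810 to 2880 with a pair left out, where only 2 ratios had to pass. The deposited values gave 205 lower and 170 higher and quantile normalization 208 and 151, so the split between directions moved. The list of phosphatidylcholine genes had 0 to 1 past the threshold with a pair left out, Chpt1 without pair 1 and Chka without pair 2. Of the sterol list 2 passed, 0 with no filter and 0 with no intensity trend, but 3 without the replicate block and 3 without pair 1. The cause of these shifts was not tested. Star at its brightest probeset is close to background, which limits how well its fold is known.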
